A study of Homo sapiens with 12 samples.

Results

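The cholesterol and fatty acid synthesis genes described here are 32 genes chosen by symbol, of 57500 gene IDs in the count table. All 32 were found in the table, and the lowest count of any of them in any library was 105. They fall into 4 groups by role: 7 genes of the mevalonate steps, 11 of the sterol steps, 6 of sterol sensing and transport, and 8 of fatty acid synthesis and desaturation. RNA was sequenced from 12 libraries of 3 established human cancer cell lines, as 4 groups of 3 libraries.

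SW480 is a colorectal cancer line from a primary tumour, and SW620 is a line from a metastatic site of the same patient. Both were untreated and grown in DMEM. The ovarian cancer line PEO4 was grown in RPMI 1640. Its control cells had the plain medium, and its treated cells had recombinant human TGFbeta, a cytokine, at 10 ng/mL for 6 days. Both media held serum and antibiotics, and total RNA was depleted of ribosomal RNA and treated with DNase. The labels call the libraries of a group biological replicates without saying whether they came from separate cultures on separate days, so p-values measure the spread between these libraries, which may be partly technical. Each state rests on 1 cell line. Because the medium differed, PEO4 and the SW lines were only described beside each other and not tested.

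Cells make cholesterol from acetyl-CoA through mevalonate, squalene and lanosterol, and they make fatty acids from the same precursor through malonyl-CoA. Both branches are controlled largely by the SREBP transcription factors, encoded by SREBF1 and SREBF2, which lie inactive in the endoplasmic reticulum while sterols are plentiful. SCAP is their escort, and the INSIG proteins retain it there. When sterols fall, the SREBPs are released, cut, and sent to the nucleus, where they raise most of the genes in this set. Proliferating tumour cells need both products for new membranes.

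Totals ranged from 14531420 to 22028956 gene-assigned counts per library. The 32 genes together took 0.534% ± 0.0303 of counts in SW480, 0.4997% ± 0.0557 in SW620, 0.383% ± 0.0129 in PEO4 control and 0.454% ± 0.0293 in PEO4 with TGFbeta (SD, n = 3). The intestinal factor CDX2 was at 12.3 to 15.1 TPM in the SW libraries and at most 0.0918 TPM in PEO4, but 3 of 6 colorectal markers, CDH17, GPA33 and KRT20, stayed under 1 TPM in every SW480 library. TPM is the transcript level per exon length, scaled to the same total in each library. The Muellerian factor PAX8 was at 165 to 197 TPM in PEO4 and 12.3 to 25.1 TPM in the SW libraries, but SOX17 was lower in PEO4, at most 2.26 TPM, than in the SW libraries, at 2.88 to 3.98 TPM. Adipocyte marker sums, from ADIPOQ, PLIN1 and LEP, were at most 0.414 TPM in any library, and hepatocyte marker sums were at most 1.64 TPM. Fibroblast marker sums were at most 1.25 TPM in SW480 and 6.58 to 11.0 TPM in SW620, where LUM reached 9.68 TPM and made up most of the sum. The others were low in SW620: PDGFRB was at most 1.20 TPM, DCN at most 0.243 TPM and PDGFRA at most 0.178 TPM. COL1A2 had a lower mean in SW620 (0.0709 TPM) than in SW480 (0.147 TPM). The part of these markers in the SW comparison was not tested. In bulk RNA, fewer cells of a type and less RNA per cell cannot be told apart.

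The stretches before the start sites of SREBF2, STARD4, ACSS2, ACLY, FADS1 and FADS2 are shown because SREBPs work beside NF-Y and Sp1 at many sterol-regulated promoters. SREBF2 had no adjusted p under 0.05 in the main edgeR fit of either comparison below. It did pass in some alternative fits of the SW comparison, given below. INSIG1, HMGCS1 and ELOVL6, which passed in the main fit of the SW comparison, are not shown. FDFT1 also passed there but had no window. Windows of 300 bases from RefSeq (GRCh38.p14), from 250 bases before to 50 after the start site, were found for 28 of the 32 genes. None was found for ACAT2, FDFT1, SQLE and FASN. The motifs searched on both strands were TCACNCCAC (a sterol regulatory element core), CCAAT (the NF-Y box), GGGCGG (the Sp1 box) and CACGTG (the E-box), and the capitals mark the matches that lie wholly before 1 start site per gene. Matches past that start site, such as the CCAAT of FADS2, or before another start site are not shown.
SREBF2, chr22:41832962-41833104, plus strand: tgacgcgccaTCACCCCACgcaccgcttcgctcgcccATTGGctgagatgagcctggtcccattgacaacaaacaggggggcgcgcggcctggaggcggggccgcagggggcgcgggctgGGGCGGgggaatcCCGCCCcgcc
STARD4, chr5:111512572-111512706, minus strand: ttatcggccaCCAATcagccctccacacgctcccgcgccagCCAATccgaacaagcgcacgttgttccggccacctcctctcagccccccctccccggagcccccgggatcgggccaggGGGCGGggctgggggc
ACSS2, chr20:34874842-34874880, plus strand: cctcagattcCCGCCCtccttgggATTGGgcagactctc
ACLY, chr17:41919031-41919206, minus strand: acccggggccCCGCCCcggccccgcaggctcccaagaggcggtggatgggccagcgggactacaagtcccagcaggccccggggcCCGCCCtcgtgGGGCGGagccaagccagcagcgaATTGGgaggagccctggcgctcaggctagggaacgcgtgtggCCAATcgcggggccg
FADS1, chr11:61817193-61817253, minus strand: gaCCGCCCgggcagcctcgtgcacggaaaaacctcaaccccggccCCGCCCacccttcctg
FADS2, chr11:61816240-61816265, plus strand: ggttctgtccCCGCCCagagacctga

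CCAAT was found in the windows of 21 of the 28 genes (75%), beside 39.7% of all 27305 genes with a window and 42.2% of the 12592 of those that were tested for expression. GGGCGG was found in 27 genes (96.4%), beside 72.6% of the tested genes. CACGTG was found in 4 genes, INSIG1, LSS, SC5D and SCAP (14.3%), beside 11.9% of the tested genes. The sterol regulatory element core was found in SREBF2 alone among the 28, beside 1.51% of the tested genes. A match of letters is a description and not a site of binding, and no match says only that these letters are not in the window. The annotated start sites of FADS1 and FADS2 lie 599 bases apart on opposite strands, or 800 with another annotated start.

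SCD, the desaturase that makes monounsaturated fatty acids, was the most abundant of the 32 transcripts in both SW lines. Its level was 572 ± 124 TPM in SW480 and 585 ± 160 TPM in SW620, which ranked 90 and 96 among all genes (SD, n = 3). In PEO4 the order was turned. FASN, which builds palmitate, was the most abundant there at 429 ± 30.5 TPM in control and 508 ± 46.9 TPM with TGFbeta, and SCD was at 226 ± 11.5 and 304 ± 50.01 TPM. The ratio of SCD to FASN was 1.62 ± 0.230 in SW480, 1.78 ± 0.369 in SW620, 0.527 ± 0.0147 in PEO4 control and 0.596 ± 0.0701 with TGFbeta. All 6 SW libraries had a ratio of 1.36 or more, and all 6 PEO4 libraries one of 0.662 or less.

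**Figure D1:**
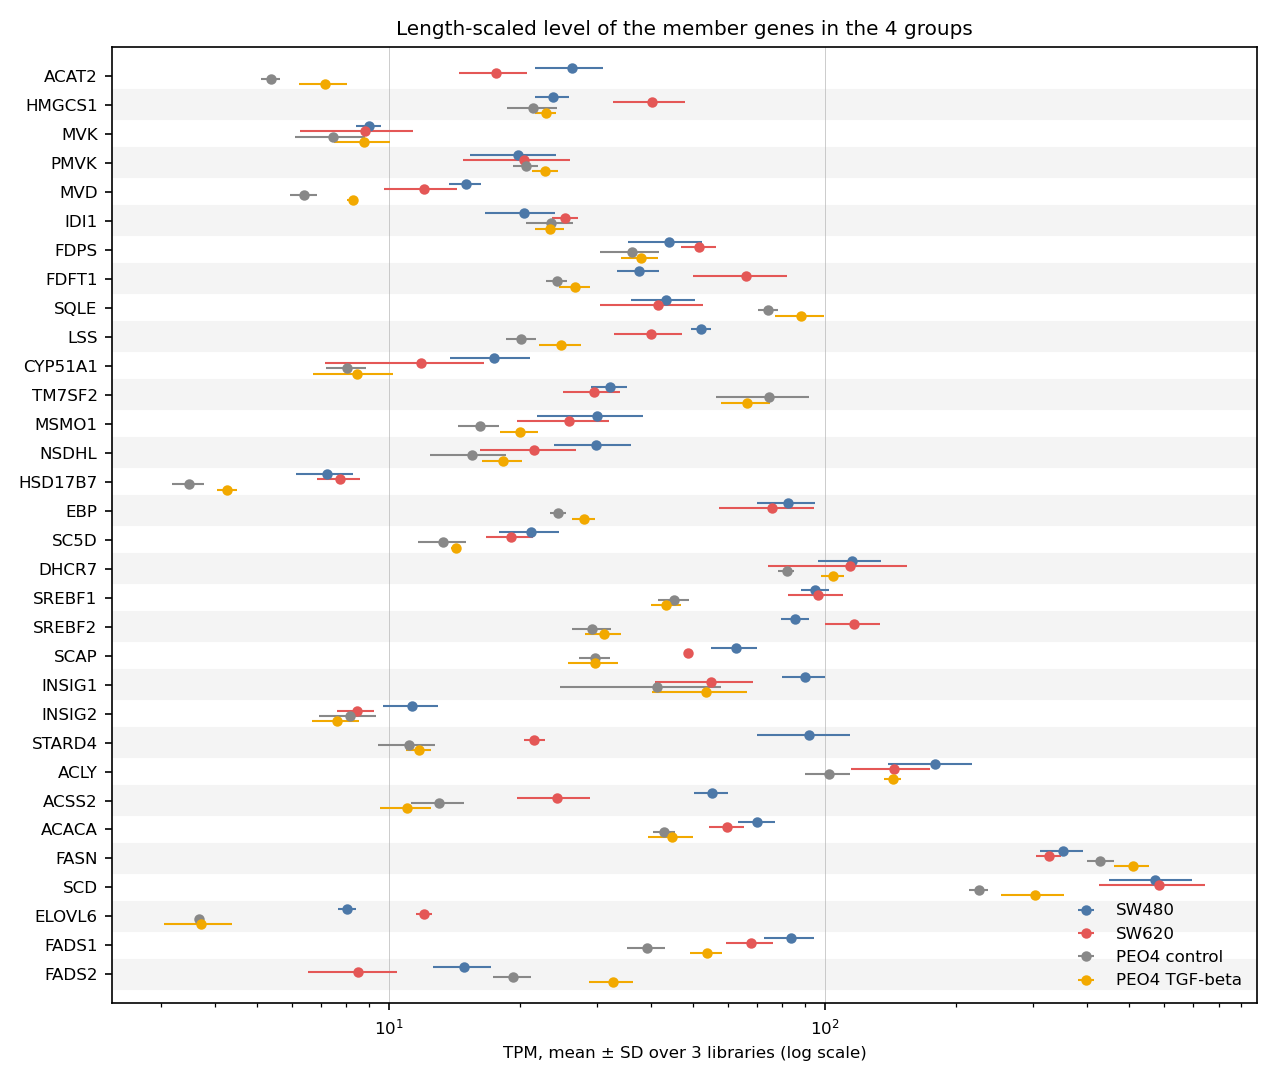
Mean level of each of the 32 genes in the 4 groups (TPM on a log axis), with bars of 1 SD over 3 libraries. SCD and FASN have the highest means in every group, and STARD4 in SW480 (91.9 TPM) stands above its 3 other means (11.1 to 21.6 TPM).

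The highest level among the mevalonate genes was that of FDPS, which makes farnesyl diphosphate, at 36.1 to 51.6 TPM as group means. Among the sterol genes DHCR7, which catalyses a last step to cholesterol, had the highest mean in every group. Its means ran from 81.8 ± 3.46 TPM in PEO4 control to 116 ± 19.2 TPM in SW480 (SD, n = 3). In PEO4 control DHCR7 was within the spread of TM7SF2, at 74.3 ± 17.9 TPM. SREBF1 led the sensing and transport genes in SW480 at 95.2 ± 6.94 TPM, SREBF2 did in SW620 at 117 ± 17.0 TPM, and INSIG1 did in PEO4 with TGFbeta at 53.3 ± 13.1 TPM, next to SREBF1 at 43.3 ± 3.39 TPM. SREBF1, STARD4, INSIG1 and SREBF2 lay close together in SW480, from 85.7 to 95.2 TPM with SDs of up to 22.1 TPM. In PEO4 control SREBF1 led at 45.1 ± 3.62 TPM, within the spread of INSIG1 at 41.3 ± 16.5 TPM.

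Of the 32 genes, 16 had a lower level in every PEO4 library than in every SW library, 3 had a higher level, and 13 overlapped. The same shares over all genes were not worked out, so these counts cannot be read as particular to the 32. This is a description, since line and medium differ together and their parts cannot be told apart. The 3 higher genes were FASN, SQLE, the squalene epoxidase, and TM7SF2, a sterol reductase. SQLE was at 70.1 to 96.4 TPM in the PEO4 libraries and 34.0 to 54.2 TPM in the SW libraries. The widest span of group means was that of STARD4, a carrier of cholesterol between membranes, 8.27-fold from PEO4 control to SW480. ACSS2, which makes acetyl-CoA from acetate, spanned 5.00-fold and ACAT2, which joins acetyl-CoA units at the head of the mevalonate route, 4.90-fold. ACAT2 is uncertain in counts without strand, since 52.3% of its exon length overlaps genes on the other strand.

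The first comparison asked which of these genes differ between the metastatic and the primary colorectal line. By edgeR at an adjusted p under 0.05, SW620 had 3 of the 32 genes higher and 4 lower. Of all 20941 genes tested 30.5% passed, 13.5% higher and 17% lower, and the 7 of 32 (21.9%) were not above that background. HMGCS1, FDFT1 and ELOVL6 rose, and STARD4, ACSS2, INSIG1 and FADS2 fell, with STARD4 by far the most. The median log2 difference (SW620 minus SW480) was −0.14 over the 32 genes and 0.03 over all genes tested. Without an adjustment 9 of the 32 had a p under 0.05, beside 40.7% of all genes. By sign 9 of the 32 were above 0, beside 51.7% of all genes. The groups did not overlap for 12 of the 32, beside 44.2% of all genes: 4 higher, beside 20.8%, and 8 lower, beside 23.4%. The same 7 genes were below 0.05 in the authors' deposited table, where 34.2% of listed genes were, 16% higher and 18.2% lower. CPM below are counts per 1e6 of the TMM-scaled library total.

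**Figure D2:**
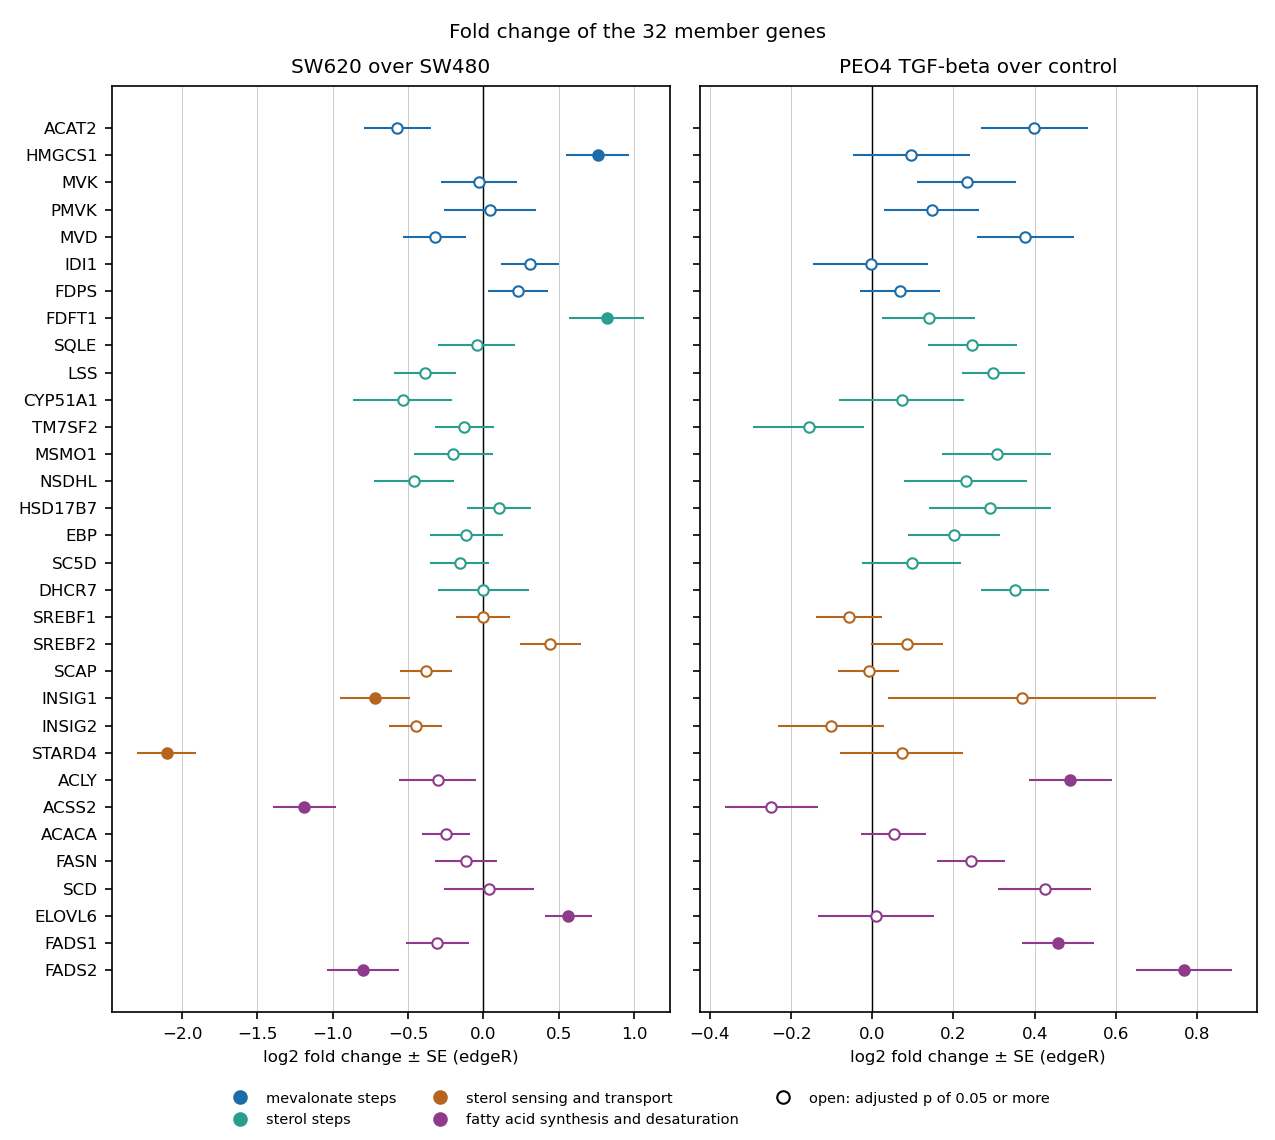
Log2 fold change of each of the 32 genes with its standard error (edgeR), for SW620 over SW480 and for PEO4 with TGFbeta over control. The panels have different horizontal scales, and filled points have an adjusted p under 0.05. STARD4 lies at −2.10 in the SW panel, and ACLY, FADS1 and FADS2 are the genes past the threshold in the PEO4 panel.

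STARD4 was the strongest change. It was at 222, 150 and 203 CPM in SW480 and at 43.6, 41.4 and 48.9 CPM in SW620, a 4.29-fold lower level (log2 −2.10 ± 0.19 SE, edgeR adjusted p = 6.46e-05, n = 3). All SW620 libraries lay far below all SW480 libraries. The gene lies at chr5:111496033-111512590 (GRCh38, GENCODE 29) on the minus strand. It kept its call under all 18 alternatives, with an adjusted p of at most 0.00198 in edgeR, DESeq2 or limma.

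INSIG1 is one of the anchors that retain SCAP in the endoplasmic reticulum and is itself a target of SREBP. It was at 126, 113 and 124 CPM in SW480 and at 48.0, 85.0 and 86.9 CPM in SW620, 1.65-fold lower (log2 −0.72 ± 0.23 SE, edgeR adjusted p = 0.0426). The groups did not overlap, but replicate 1 of SW620 was far below the other 2. INSIG1 was past the threshold by a small margin. It did not pass in edgeR without SW480 replicates 1, 2 or 3 (adjusted p = 0.149, 0.0588 and 0.122) or without SW620 replicate 1, where the difference was −0.45 (adjusted p = 0.154). A GC correction (adjusted p = 0.0556) and a model of all 12 libraries (0.0841) also ended the call. The gene lies at chr7:155297776-155310235.

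Of the other sensing genes, INSIG2 was at 17.5, 14.3 and 17.6 CPM in SW480 and at 12.2, 11.6 and 12.4 CPM in SW620 (log2 −0.45 ± 0.18 SE, edgeR adjusted p = 0.0860). SCAP was at 152, 131 and 162 CPM and then 104, 107 and 130 CPM (log2 −0.38 ± 0.17 SE, edgeR adjusted p = 0.125). Neither passed the test, though their groups did not overlap. INSIG2 passed with a GC correction (adjusted p = 0.0449) and in a model of all 12 libraries (0.0301), and SCAP with upper-quartile scaling (0.0328) and in that model (0.0286). SREBF2 was at 238, 227 and 250 CPM in SW480 and at 307, 259 and 405 CPM in SW620 (log2 0.44 ± 0.20 SE, edgeR adjusted p = 0.136), also without overlap. It passed with total-count scaling (0.0224), with upper-quartile scaling (0.0383) and without SW620 replicate 2 (0.0247). SREBF1 had almost equal means, with a log2 difference of −0.00 and an edgeR adjusted p of 0.992. The ratio of SREBF2 to SREBF1 per length was 0.8917 to 0.9092 in the SW480 libraries and 1.104 to 1.36 in SW620, a description that was not tested.

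Among the mevalonate genes, HMGCS1 alone passed. It makes HMG-CoA, a precursor of mevalonate. HMGCS1 was at 41.8, 40.6 and 40.9 CPM in SW480 and at 49.6, 71.6 and 87.6 CPM in SW620, 1.69-fold higher (log2 0.76 ± 0.21 SE, edgeR adjusted p = 0.0231, n = 3). SW480 varied little and SW620 varied widely, and part of its exons overlaps a gene on the other strand. HMGCS1 did not pass in edgeR without SW480 replicate 1, 2 or 3, where its adjusted p was 0.0744, 0.0626 and 0.0928, or with a GC correction (0.0537). The gene lies at chr5:43289395-43313512. ACAT2 was at 45.4, 34.8 and 44.4 CPM in SW480 and at 21.4, 25.4 and 37.0 CPM in SW620 (log2 −0.57 ± 0.22 SE, edgeR adjusted p = 0.0854) and overlapped between the groups. ACAT2 passed in a model of all 12 libraries (adjusted p = 0.0233), with total-count scaling (0.0361), with upper-quartile scaling (0.0311) and without SW620 replicate 3 (0.00816). The other 5 genes had log2 differences from −0.32 in MVD to 0.31 in IDI1, and none passed.

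Among the 11 sterol genes FDFT1, which joins farnesyl units into squalene, alone passed. It was at 70.6, 63.6 and 82.1 CPM in SW480 and at 95.9, 106 and 179 CPM in SW620, 1.76-fold higher (log2 0.82 ± 0.25 SE, edgeR adjusted p = 0.0355). The groups did not overlap, and SW620 replicate 3 was the highest by a wide margin. FDFT1 did not pass in edgeR without SW480 replicate 1, 2 or 3 (adjusted p = 0.112, 0.107 and 0.0753) or without SW620 replicate 3, where the difference was 0.47 (adjusted p = 0.0706). The remaining 10 had log2 differences from −0.54 in CYP51A1, the lanosterol demethylase, to 0.10 in HSD17B7. LSS, the cyclase that makes lanosterol, was at 132, 145 and 140 CPM in SW480 and at 76.9, 114 and 128 CPM in SW620 without overlap (log2 −0.39 ± 0.20 SE, edgeR adjusted p = 0.194). Without SW620 replicate 3, CYP51A1 (adjusted p = 0.0113) and NSDHL (0.0165), a sterol dehydrogenase, passed as lower. CYP51A1 shares 79.4% of its exon length with same-strand genes and is uncertain.

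In the fatty acid group ACSS2 fell. It was at 106, 99.1 and 123 CPM in SW480 and at 34.7, 53.5 and 55.7 CPM in SW620, 2.28-fold lower (log2 −1.19 ± 0.21 SE, edgeR adjusted p = 0.00243, n = 3). Groups were well apart, and the call held under all 18 alternatives, with an adjusted p of at most 0.0155. The gene lies at chr20:34872146-34927962 on the plus strand.

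FADS2 is the first desaturase of polyunsaturated fatty acid synthesis. It was at 64.4, 52.2 and 64.5 CPM in SW480 and at 25.1, 30.9 and 48.0 CPM in SW620, 1.74-fold lower (log2 −0.80 ± 0.24 SE, edgeR adjusted p = 0.0335). It did not pass in edgeR without SW480 replicate 1 or 3 (adjusted p = 0.133 and 0.112) or without SW620 replicate 1 or 2 (0.173 and 0.0678). ELOVL6, which lengthens palmitate, was at 20.6, 20.7 and 23.6 CPM in SW480 and at 28.9, 32.2 and 34.7 CPM in SW620, 1.48-fold higher (log2 0.56 ± 0.16 SE, edgeR adjusted p = 0.0233). Neither gene overlapped between the groups. ELOVL6 did not pass in edgeR without SW480 replicate 1, 2 or 3 (adjusted p = 0.112, 0.0794 and 0.0765) or without SW620 replicate 3 (0.0546), with a GC correction (0.0514) or without a filter on low counts (0.079).

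FASN, SCD, FADS1, ACLY and ACACA did not pass, with log2 differences from −0.31 in FADS1 to 0.04 in SCD. FASN was at 1263, 1115 and 1257 CPM in SW480 and at 1007, 1004 and 1341 CPM in SW620 (log2 −0.12 ± 0.21 SE, edgeR adjusted p = 0.723). SCD was at 1227, 868 and 1294 CPM and then 1025, 809 and 1647 CPM (log2 0.04 ± 0.30 SE, edgeR adjusted p = 0.941). In both genes SW620 replicate 3 was the highest of all 6 libraries. ACACA, which makes malonyl-CoA, was at 344, 323 and 338 CPM and then 268, 291 and 286 CPM without overlap (log2 −0.25 ± 0.16 SE, edgeR adjusted p = 0.280).

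**Figure D3:**
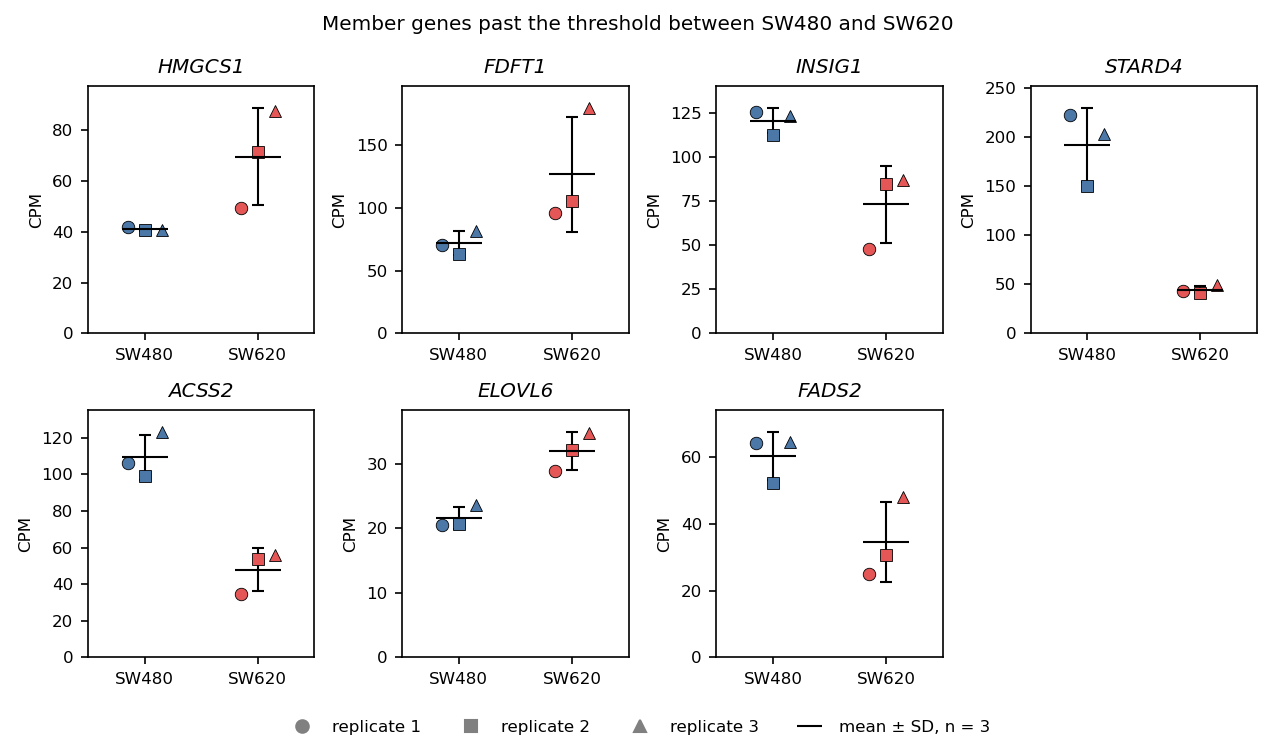
CPM of the 7 genes past the threshold in each SW480 and SW620 library, with group means and SD. STARD4 has the widest gap, and the SW620 libraries of HMGCS1, FDFT1, INSIG1 and FADS2 are spread more widely than those of SW480.

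SW620 replicate 3 had the highest CPM of the SW620 libraries for 31 of the 32 genes, beside 44.5% of all genes tested, with a median log2 deviation from its group mean of 0.35 over the 32 and 0.05 over all genes. SW480 replicate 2 had the lowest of its group for 29 of the 32, beside 41.4% of all genes. Replicate 3 was the highest in both SW lines for 20 of the 32, beside 24.1% of all genes. Replicate 2 was the lowest in both SW lines for 15 of the 32, beside 30.9% of all genes. Without SW620 replicate 3, 1 of the 32 was called higher and 7 lower, beside 3227 and 4192 of all genes, and the median difference was −0.42. Without SW480 replicate 1, 2 or 3, edgeR called 0 of the 32 higher, beside 1825, 2598 and 1827 of all genes. Each time 3 of the 32 were higher at an unadjusted p under 0.05. Lower were 2, 3 and 2 of the 32, beside 2428, 3329 and 2636 of all genes. Without SW620 replicate 1 edgeR called 2 of the 32 lower, beside 2408 of all genes. DESeq2 and limma-voom on all libraries each called 3 of the 32 higher and 4 lower, beside 7113 and 6406 of all genes in either direction. SW620 replicate 3 also held an estimated 1.22% of PEO4-like reads. The estimate used 26 genes with at most 3 counts in every other SW library and a mean of at least 20 CPM in PEO4. These reads would account for at most 3.15% of the counts of any of the 32 genes there (FADS2). Each of the other SW libraries had only 1 or 2 such genes and was not estimated, so they are not shown to be free of such reads. The part of these reads in the other results was not tested.

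**Figure D4:**
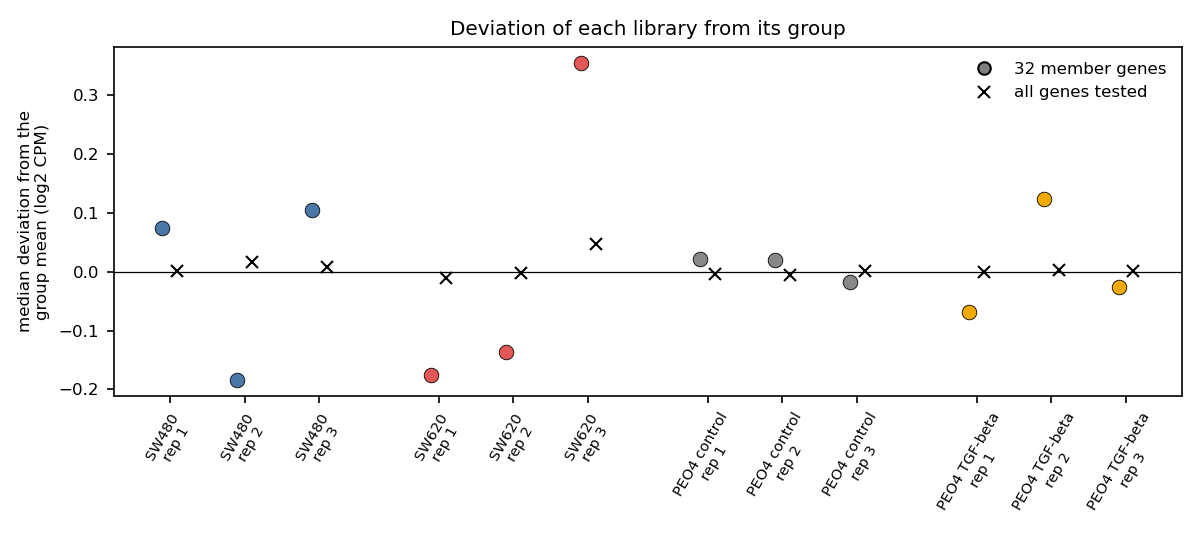
Median deviation of each library from its group mean (log2 CPM), over the 32 genes (circles) and over all genes tested (crosses). SW620 replicate 3 lies at 0.35 and SW480 replicate 2 at −0.18, while no all-gene median is beyond 0.05.

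The second comparison asked what 6 days of TGFbeta does to these genes in PEO4 cells. With TGFbeta, 3 of the 32 genes rose at an adjusted p under 0.05 in edgeR, all in the fatty acid group: ACLY, FADS1 and FADS2. That is 9.38% of the 32, and 2.26% of all 19064 genes tested passed, 1.27% higher and 0.991% lower. None of the 32 was lower, in edgeR or in DESeq2. Without an adjustment 10 of the 32 had a p under 0.05, all higher, beside 16.7% of all genes in either direction. The median log2 difference (TGFbeta minus control) was 0.17 over the 32 genes and −0.02 over all genes. By sign, 26 of the 32 were above 0, beside 47.7% of all genes. The number without overlap between the groups was 11, all higher, beside 11.1% of all genes higher without overlap, 10.3% lower and 21.5% in all. Leaving out control replicate 2 left 0 of the 32 past the threshold in edgeR, beside 72 of all genes, with 10 of the 32 at an unadjusted p under 0.05. Leaving out control replicate 3, or TGFbeta replicate 1, 2 or 3, left 1, beside 233, 128, 130 and 223 of all genes. A model of all 12 libraries left 0, beside 165 of all genes, with 5 of the 32 at an unadjusted p under 0.05. Among the 6 Muellerian markers, WT1 was at 121 to 128 TPM in control and 87.8 to 93.7 TPM with TGFbeta, EMX2 at 71.3 to 88.3 and 52.3 to 61.0 TPM, and MUC16 at 217 to 390 and 90.4 to 184 TPM. The groups overlapped in PAX8 and SOX17, and not in EPCAM, at 119 to 154 and 167 to 174 TPM. The part of these markers in the result was not tested.

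FADS2 was at 73.9, 87.5 and 82.6 CPM in control and at 126, 163 and 126 CPM with TGFbeta, 1.70-fold higher (log2 0.77 ± 0.12 SE, edgeR adjusted p = 0.0148, n = 3). All treated libraries lay above all control libraries. FADS2 lies at chr11:61792980-61867354 and partly overlaps FADS1 on the other strand. The same gene was lower in SW620 than in SW480. It did not pass in edgeR without control replicate 2 (adjusted p = 0.0639) or in a model of all 12 libraries (0.119).

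FADS1, the desaturase that acts after FADS2, was at 143, 156 and 161 CPM in control and at 196, 230 and 206 CPM with TGFbeta, 1.37-fold higher (log2 0.46 ± 0.09 SE, edgeR adjusted p = 0.0336). The groups did not overlap. It did not pass in edgeR without TGFbeta replicate 1, 2 or 3 (adjusted p = 0.0776, 0.126 and 0.0809) or without control replicate 2 or 3 (0.144 and 0.06), or in a model of all 12 libraries (0.327). The gene lies at chr11:61799625-61829318 on the minus strand.

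ACLY, which makes cytosolic acetyl-CoA from citrate, was at 236, 189 and 190 CPM in control and at 284, 301 and 276 CPM with TGFbeta, 1.40-fold higher (log2 0.49 ± 0.10 SE, edgeR adjusted p = 0.0461). Again the groups did not overlap. ACLY did not pass without TGFbeta replicate 1, 2 or 3 (adjusted p = 0.159, 0.186 and 0.0906) or without control replicate 2 or 3 (0.226 and 0.13), with a GC correction (0.0697) or in a model of all 12 libraries (0.509). The gene lies at chr17:41866908-41930542 on the minus strand.

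**Figure D5:**
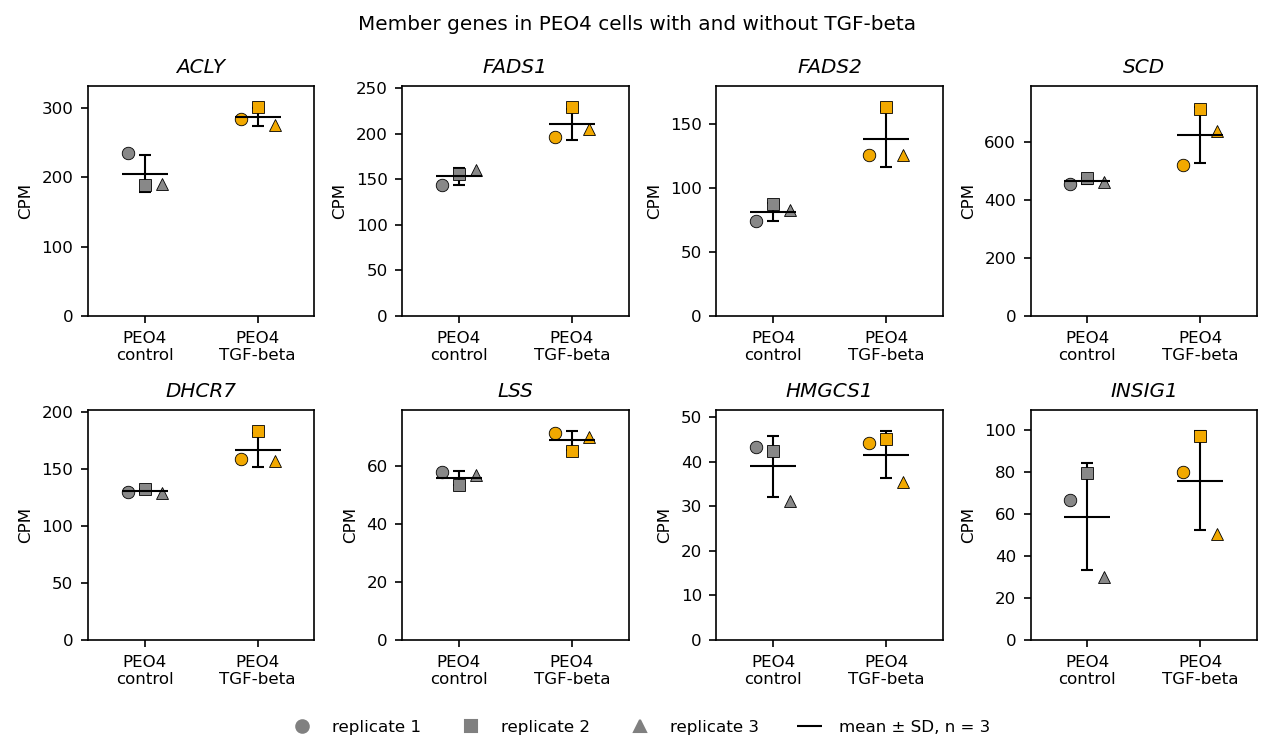
CPM of 8 of the 32 genes in each PEO4 control and TGFbeta library, with the mean and SD of 3 libraries. In ACLY, FADS1, FADS2, SCD, DHCR7 and LSS all treated libraries lie above all controls, and in HMGCS1 and INSIG1 the groups overlap with replicate 3 lowest in both.

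SCD was at 454, 477 and 462 CPM in control and at 521, 713 and 637 CPM with TGFbeta (log2 0.42 ± 0.11 SE, edgeR adjusted p = 0.103). FASN was at 1510, 1535 and 1573 CPM and then 1740, 1879 and 1844 CPM (log2 0.24 ± 0.08 SE, edgeR adjusted p = 0.193). Neither passed, and neither overlapped. DHCR7 was at 130, 133 and 129 CPM in control and at 159, 184 and 157 CPM with TGFbeta (log2 0.35 ± 0.08 SE, edgeR adjusted p = 0.0682). LSS was at 57.8, 53.3 and 56.7 CPM and then 71.3, 65.1 and 70.0 CPM (log2 0.30 ± 0.08 SE, edgeR adjusted p = 0.0951). DHCR7 passed in DESeq2 (adjusted p = 0.0124) and without a filter on low counts in edgeR (0.013), as did SCD (0.0126 and 0.00179), and FASN passed in DESeq2 (0.0496). The other genes without overlap were ACAT2, MVD, PMVK and HSD17B7, at log2 differences from 0.15 to 0.40 and adjusted p of at least 0.160. In the authors' deposited table, with 5.11% of its genes below 0.05 (2.9% higher and 2.22% lower), 6 of the 32 were, all higher: FADS2, FADS1, ACLY, DHCR7, SCD and FASN. ACSS2 had the lowest difference of the 32, at 23.3, 29.1 and 28.3 CPM in control and 20.7, 23.4 and 23.9 CPM with TGFbeta (log2 −0.25 ± 0.11 SE, edgeR adjusted p = 0.318). The remaining mevalonate, sterol and fatty acid genes ran from −0.16 in TM7SF2 to 0.31 in MSMO1 on the log2 scale, and none passed.

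Of the 6 sensing and transport genes edgeR called 0, with 0 at an unadjusted p under 0.05 and 0 in the authors' deposited table, and their median difference was 0.03. INSIG1 was at 66.5, 79.4 and 30.2 CPM in control and at 80.01, 97.0 and 50.2 CPM with TGFbeta (log2 0.37 ± 0.33 SE, edgeR adjusted p = 0.627). It passed only in edgeR with a replicate block (adjusted p = 0.0127), though the replicate numbers were not taken as pairs. Replicate 3 was the lowest in both groups, as it was for 9 of the 32 genes, beside 18% of all genes tested, among them HMGCS1, IDI1, STARD4 and DHCR7. Replicate 1 was the lowest in both groups for another 11 genes, beside 16.6% of all genes, among them FASN, SCD, FADS1 and FADS2.

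Other genes of lipid metabolism were read from 9 lists with 109 genes in the table. Between the SW lines 12 of 100 tested genes rose and 20 fell, 32% beside 30.5% of all genes. The largest differences were those of ACSS1, a mitochondrial enzyme with the activity of ACSS2, which fell from 39.3 ± 5.91 to 0.790 ± 0.138 CPM (SD, n = 3; log2 −5.62, edgeR adjusted p = 2.20e-06), and GRAMD1B, a carrier of cholesterol from the plasma membrane, which rose from 2.74 ± 0.512 to 80.9 ± 15.5 CPM (log2 4.88, edgeR adjusted p = 2.79e-06). Of 8 genes of sterol efflux and LXR, 3 fell, among them ABCA1, the efflux pump, from 16.4 ± 3.88 to 6.64 ± 0.619 CPM. Of 10 other genes of SREBP processing edgeR called 0, with 3 at an unadjusted p under 0.05. Of 11 tested triglyceride and lipid droplet genes, 2 rose and 1 fell. MGLL fell from 16.3 ± 2.13 to 0.895 ± 0.604 CPM, and DGAT2 rose from 3.56 ± 0.155 to 15.1 ± 4.43 CPM. Lipid droplet coat gene PLIN2 rose from 24.5 ± 6.47 to 91.5 ± 35.7 CPM. In PEO4, 2 of 104 rose and 2 fell (3.85%), beside 2.26% of all genes. FADS3, in the same gene family as FADS1 and FADS2, rose from 37.9 ± 3.79 to 54.6 ± 3.70 CPM (log2 0.53 ± 0.10 SE, edgeR adjusted p = 0.0315). ACSS1 fell from 18.3 ± 1.86 to 10.1 ± 1.02 CPM and THRSP, a lipogenic regulator, from 52.7 ± 10.9 to 24.9 ± 5.77 CPM.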

How the data were processed

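RNA-seq counts came from 12 libraries. Per the submitters' processing notes, tools named include Trimmomatic 0.36, STAR 2.5.2b, featureCounts, Subread 1.5.2 and DESeq2, with build GRCh38. Annotation release and strand use are not given in the sources used here. The authors deposited whole-number counts per gene, and separate tables per comparison with a log2 fold change and raw and adjusted p-values, per the file headers. Those deposited tables also give a normalised signal per library, which was not used.

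Each comparison was fitted on its 6 libraries with edgeR 4.0.16 in R 4.3.3 (filterByExpr, TMM, quasi-likelihood test, two-sided, Benjamini-Hochberg over all genes tested, threshold 0.05). The standard error was the log2 fold change over the square root of F. TPM used exon lengths of GENCODE 29, in which 56898 gene IDs were found. Alternatives used DESeq2 1.42.0, limma 3.58.1 (voom), other scalings and filters, a GC correction, all 12 libraries in 1 model, a replicate block, and leaving out each library. In simulated data with 3 libraries a group, edgeR recovered 19.1% of 47 2-fold changes among 19755 genes of the SW design. It recovered 66% of 47 among 18626 genes of PEO4. Few genes were changed there, and all calls were 86 in the SW design and 148 in PEO4, beside 6385 and 431 in the data. The adjusted threshold was then stricter than in the data, so these shares cannot be carried over to the data.

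The 32 genes and the other lists were chosen with earlier results of these data known. Every one of the 32 is accounted for: those past the threshold are named with values, the others by values, range or count. Genes of the other lipid lists are named only where past the threshold without overlap between groups, at most the 4 largest per list. Some genes of these lists past the threshold are not reported here. With 3 against 3 libraries an exact two-sided permutation test cannot give a p below 0.1, so the tests rest on the model across genes.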

Additional observations from a re-analysis of the deposited data

How the results depend on the processing

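STARD4 and ACSS2 kept their call in all 18 alternatives of the SW comparison, and no call among the 32 genes reversed. Between the SW lines edgeR called 6385 genes, 10667 with a replicate block and 11065 with the block and a GC correction, and 4253 to 7419 when leaving out 1 library. Of the 32, 3 were higher, 1 with the GC correction, and 0 to 4 when leaving out 1 library. Those lower were 4, 12 with the block, 13 with the block and GC correction, and 2 to 7 when leaving out 1 library. Genes of the other lists called were 32, 67 with the block, 62 with both, and 17 to 41 when leaving out 1 library. The median difference was −0.42 to −0.0049 when leaving out 1 library.

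In PEO4 edgeR called 431 genes, 967 by DESeq2, 1949 with block and GC correction, 165 with all 12 libraries in 1 model, 1457 without a filter, 2102 with the block, and 72 to 1080 when leaving out 1 library. Of the 32, 3 were higher, then 6, 6, 0, 5 and 9 in the same order, and 0 to 3 when leaving out 1 library. Other-list genes called were 4, then 11, 17, 1, 15 and 21, and 0 to 11. The GC correction gave 191 higher and 206 lower genes, beside 242 and 189. The cause was not tested. The replicate numbers were not taken as pairs: same-numbered libraries correlated at 0.0595, 0.712 and 0.621 in the SW lines and at 0.349, −0.0908 and 0.534 in PEO4, and 5 of 6 and 4 of 6 libraries correlated best with their own number. With the block edgeR also called INSIG1 higher in PEO4 (log2 0.42, adjusted p = 0.0127), where every same-numbered pair was higher with TGFbeta, as well as SCD, DHCR7, FASN, LSS and MVD, and between the SW lines SREBF2 higher and ACAT2, LSS, CYP51A1, NSDHL, SCAP, INSIG2, ACLY and FADS1 lower. In the simulation, with few genes changed and 14531420 to 22028956 counts per library, 0% of 1.5-fold changes were recovered in the SW design and 28% in PEO4. These shares cannot be carried over to the data, where more genes were called.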

Other observations

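The balance between paired genes differed among the groups, as a description with no test. The ratio of FADS1 to FADS2 per exon length was 5.62 ± 0.119 in SW480, 8.15 ± 1.40 in SW620, 2.04 ± 0.103 in PEO4 control and 1.65 ± 0.124 in PEO4 with TGFbeta (SD, n = 3). All PEO4 libraries were at 2.10 or below and all SW libraries at 5.49 or above. The ratio of INSIG1 to INSIG2 was 7.97 ± 0.490 in SW480, 6.59 ± 2.04 in SW620, 5.33 ± 2.78 in PEO4 control and 7.18 ± 2.30 with TGFbeta, so its groups overlapped.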
